A study of Homo sapiens with 16 samples.

Results

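The peroxisome genes described here were a list of 32 genes for the building of peroxisomes and for the enzymes and membrane proteins that work in them. A gene was taken where a transcript cluster, the array's unit of about 1 gene, carried its symbol alone. Of 32 genes, 29 had such a cluster, out of 18417 genes with a cluster of 1 symbol on the array and 33297 clusters in all. PXMP2 had 2 clusters and was read from the brighter of them. PEX13, SCP2 and AMACR had no cluster of their own in the annotation used here and were not analysed here.

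The 16 Affymetrix Human Gene 1.0 ST arrays, 4 per group, held RNA of A375, a melanoma cell line from a human tumour without pigment, and of lines made from it. The 4 groups were the arrays labelled G10 and those of A7, both stable clones of A375 carrying the human catalase cDNA in the pcDNA3 vector, PCDNA3, which was A375 with the empty vector, and untransfected A375. Transfected cells were kept in geneticin and A375 cells had no vector. Each clone was obtained by clonal dilution, so each catalase line was 1 clone, and clone and catalase cannot be told apart. The study set out to compare gene expression between melanoma cells of differing redox state, with the average of A375 and PCDNA3 as control. Values were log2 intensities, and a difference of 1 on that scale is a doubling of the signal.

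Peroxisomes are small organelles bounded by a single membrane that oxidise very long and branched fatty acids, start the synthesis of ether lipids and both make and break down hydrogen peroxide. Their proteins are made in the cytosol. Receptors of the peroxin (PEX) family carry them to the membrane, dock, release the cargo and are then pulled back out by an ATPase complex, while other peroxins insert membrane proteins or divide the organelle. Catalase, the protein encoded by the transfected cDNA, is a peroxisomal enzyme that breaks down hydrogen peroxide. In mammals several of these genes are targets of PPAR nuclear receptors.

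The signal of the catalase gene (CAT) was not raised in the arrays labelled G10, although their label names catalase transfection. CAT gave 8.51, 8.55, 7.74 and 8.27 in the arrays labelled G10 and 9.02, 8.92, 9.12 and 9.02 in A7, against 8.51 to 9.03 with a median of 8.63 in the 8 control arrays. Replicates 3 and 4 of the arrays labelled G10 lay below every control array and replicates 1 and 2 at the low end of the controls, while A7 lay around their high end. Neither clone passed the test against control. The difference was -0.38 in G10-labelled arrays (limma, adjusted p = 0.053) and 0.37 in A7 (adjusted p = 0.124), while the G10 vs A7 difference was -0.75 (adjusted p = 0.00221). Whether the probes of this cluster fall in the transfected cDNA was not examined, so the cluster may not see the transgene. For G10, every direction below is that of the arrays bearing this label.

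The arrays labelled G10 fell into pairs. Over all clusters, replicates 1 and 2 correlated at 0.9941 and replicates 3 and 4 at 0.9918, whereas pairs across them lay between 0.9844 and 0.9871. Many of the peroxisome genes were highest in replicates 1 and 2. In 18 of the 29 genes (62.1%) the highest values among the arrays labelled G10 were those of replicates 1 and 2, against 26.2% of all clusters. Replicates 3 and 4 were the highest in 5 (17.2%), against 25.8% of all clusters. The A7 arrays paired in a similar way over all clusters, with correlations of 0.994 for replicates 1 and 2 and 0.9949 for replicates 3 and 4, against 0.9875 to 0.9926 across them. The highest A7 values were those of replicates 1 and 2 in 11 of the 29 genes (37.9%), against 29.5% of all clusters, and those of replicates 3 and 4 in 9 (31%), against 30.2%. All clusters include many of unexpressed genes, and these shares were not computed without them. Whether the 29 genes differ here from other expressed genes was therefore not tested. The median SD over the 29 genes was 0.228 in G10-labelled arrays, 0.0917 in A7, 0.133 in PCDNA3 and 0.148 in A375, while over all clusters it was 0.183, 0.158, 0.158 and 0.146 in the same order. The labels do not name a batch. Those of the 29 genes called in G10 vs control are therefore also given without replicates 1 and 2. Other genes described as called in G10 are so given only where that call was lost. Counts and changed calls are also given without replicates 3 and 4. Both alternatives were chosen after seeing the data. Leaving out arrays gives a fit in which the remaining pair shares the spread estimated over all groups.

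Array medians ran between 5.85 and 5.97. Of 11 melanocyte lineage markers, 10 lay above the level of olfactory receptors in all groups. So did 2 of 5 keratinocyte markers (KRT14 and KRT10), 2 of 4 leukocyte markers (CD68 and CD14), 1 of 4 endothelial markers (KDR), 4 of 5 fibroblast markers (PDGFRA, PDGFRB, LUM and COL1A1) and 2 of 4 hepatocyte markers (APOA1 and TTR). The other members of these lists (KRT5, KRT1, CDH1, PTPRC, CD3E, PECAM1, CDH5, VWF, DCN, ALB and CYP7A1) lay below it. That level, 5.18, is the 95th percentile of the means of 381 clusters of olfactory receptor genes, which serve here as a stand-in for unexpressed genes. Of the 29 peroxisome genes, 27 lay above it in all groups. PIPOX and DAO, oxidases that form hydrogen peroxide from pipecolic acid or sarcosine and from D-amino acids, lay below it in every group, and no size is given for them. In these bulk samples, fewer cells of a type and less RNA per cell cannot be told apart. Of the 11 melanocyte markers, 5 were called higher and 0 lower in G10 vs control, where 9.92% and 7.9% of all clusters were. In A7 vs control these were 3 and 0, against 3.46% and 2.23% of all clusters. Among the markers of other cell types, CD68 was called higher (0.58, limma, adjusted p = 0.0139) and TTR lower (-0.51, adjusted p = 0.0249) in G10 vs control. LUM (0.91, adjusted p = 0.0172) and TTR (1.10, adjusted p = 0.000263) were called higher in A7 vs control. The part of the markers in the values below was not tested.

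The promoters of 4 peroxisome genes that changed in G10-labelled arrays are shown first, since the changes differ in direction among genes of 1 organelle. RefSeq entries of build GRCh38.p14 were found for 24 of the 29 genes, and EHHADH, which changed most, was not among the 24. The 250 bases upstream of the start in each entry are written 5′ to 3′ on the strand of the gene, with matches to the motifs searched in capitals. They are given for PEX11A, PEX6 and HACL1, which were upregulated in G10-labelled arrays, and for IDH1, which was downregulated. For IDH1 this window lay inside the annotated gene (208236227 to 208255071), downstream of its outermost start, so it is not upstream of the whole gene.

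PEX11A (chr15:89690755-89691004, minus strand): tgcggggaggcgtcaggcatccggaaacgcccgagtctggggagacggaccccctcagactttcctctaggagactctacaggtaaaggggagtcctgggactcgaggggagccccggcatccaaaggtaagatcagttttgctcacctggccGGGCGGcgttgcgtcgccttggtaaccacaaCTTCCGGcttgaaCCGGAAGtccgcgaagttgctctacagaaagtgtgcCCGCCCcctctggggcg
PEX6 (chr6:42979182-42979431, minus strand): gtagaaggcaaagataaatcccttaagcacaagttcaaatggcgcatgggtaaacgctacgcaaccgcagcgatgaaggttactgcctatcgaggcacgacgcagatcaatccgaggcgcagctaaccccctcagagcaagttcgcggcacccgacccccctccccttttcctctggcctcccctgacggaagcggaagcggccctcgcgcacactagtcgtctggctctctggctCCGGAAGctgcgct
HACL1 (chr3:15601570-15601819, minus strand): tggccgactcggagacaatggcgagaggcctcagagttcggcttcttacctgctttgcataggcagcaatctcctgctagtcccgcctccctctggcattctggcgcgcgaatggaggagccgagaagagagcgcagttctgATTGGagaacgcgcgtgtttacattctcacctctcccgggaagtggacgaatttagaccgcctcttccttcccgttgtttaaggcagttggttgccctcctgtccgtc
IDH1 (chr2:208254459-208254708, minus strand): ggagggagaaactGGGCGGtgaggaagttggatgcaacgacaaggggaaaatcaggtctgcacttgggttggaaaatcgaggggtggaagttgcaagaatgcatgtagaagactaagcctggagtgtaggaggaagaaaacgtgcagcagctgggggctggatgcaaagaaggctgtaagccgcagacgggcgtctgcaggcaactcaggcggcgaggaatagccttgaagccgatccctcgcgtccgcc

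Motifs were searched on both strands, and a match is only a description. The ETS motif CCGGAAG was present in 6 of 24 promoters of these genes (25.0%), those of PEX5, PEX6, PEX11A, PEX16, PEX26 and GNPAT, against 8.82% of all 27305 promoters. PEX11A held it on both strands and PEX6 held it near the start. The GC box GGGCGG, which can overlap other motifs rich in G and C, stood in 15 of 24 (62.5%) and in 42.3% of all promoters, and the CCAAT box CCAAT in 9 of 24 (37.5%) and 33.0%. The direct repeat bound by PPAR and RXR was found in 0 of 24 and in 0.0183% of all promoters, and the single nuclear receptor site AGGTCA, contained in it, in 2 of 24, those of AGPS and PXMP4, and in 12.1%. The other motifs were CACGTG with 3 of 24 and 6.49%, TCATGTG with 0 and 2.58%, TGACNNNGC with 3 and 11.0%, and the NRF1 site with 1 and 5.53%. HACL1 held a CCAAT box and IDH1 a GC box, and neither held the ETS letters in this window. No difference in these shares was tested.

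In G10 vs control, 6 of the 29 peroxisome genes were upregulated and 3 downregulated. Of all 33297 clusters, 9.92% were called higher and 7.9% lower in the same comparison. Since 27 of the 29 genes lay above the level of olfactory receptors, the 20847 clusters above it in a group are the closer comparison. Of those clusters, 3082 were called higher and 2397 lower, 26.3% in either direction, against 31% of the 29 genes. The median difference of the 29 genes was 0.10, against -0.04 over all clusters. The upregulated genes were PEX6, PEX11A, EHHADH, HACL1, CRAT and PXMP4, and the downregulated genes were PEX3, AGPS and IDH1. In A7 vs control, 3 genes were upregulated (PEX5, PEX19 and MPV17) and 0 downregulated. Of all clusters, 3.46% were called higher and 2.23% lower (5.69% in either direction). Of the 20847 clusters above the level of olfactory receptors in a group, 7.99% were called, against 10.3% of the 29 genes. The median was 0.15 over the 29 genes and -0.02 over all clusters. The 2 comparisons share the same 8 control arrays. Arrays did not overlap with the 8 control arrays, on the higher side, in 3 genes in G10 (PEX6, PEX11A and HACL1), against 5.96% of all clusters, and in 5 genes in A7 (PEX5, PEX19, MPV17, PHYH and CRAT), against 3.5%. On the lower side this held for IDH1 in G10, against 4.35%, and for 0 genes in A7, against 2.47%. Of the 20847 clusters above the level of olfactory receptors, 1871 did not overlap on the higher side and 1355 on the lower side in G10. In A7 these were 1062 and 725. PCDNA3 vs A375 gave 0 calls by limma, with 3 genes at an unadjusted p under 0.05 (PEX7, PEX26 and EHHADH). Its arrays did not overlap on the higher side in 1 gene (PEX26), against 6.26%, and on the lower side in 3 (EHHADH, PECR and MPV17), against 4.87%. Of the 20847 clusters, 1848 and 1379 did not overlap on these sides. Of all clusters, 0.045% were called higher and 0.0781% lower (0.123% in either direction).

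**Figure D1:**
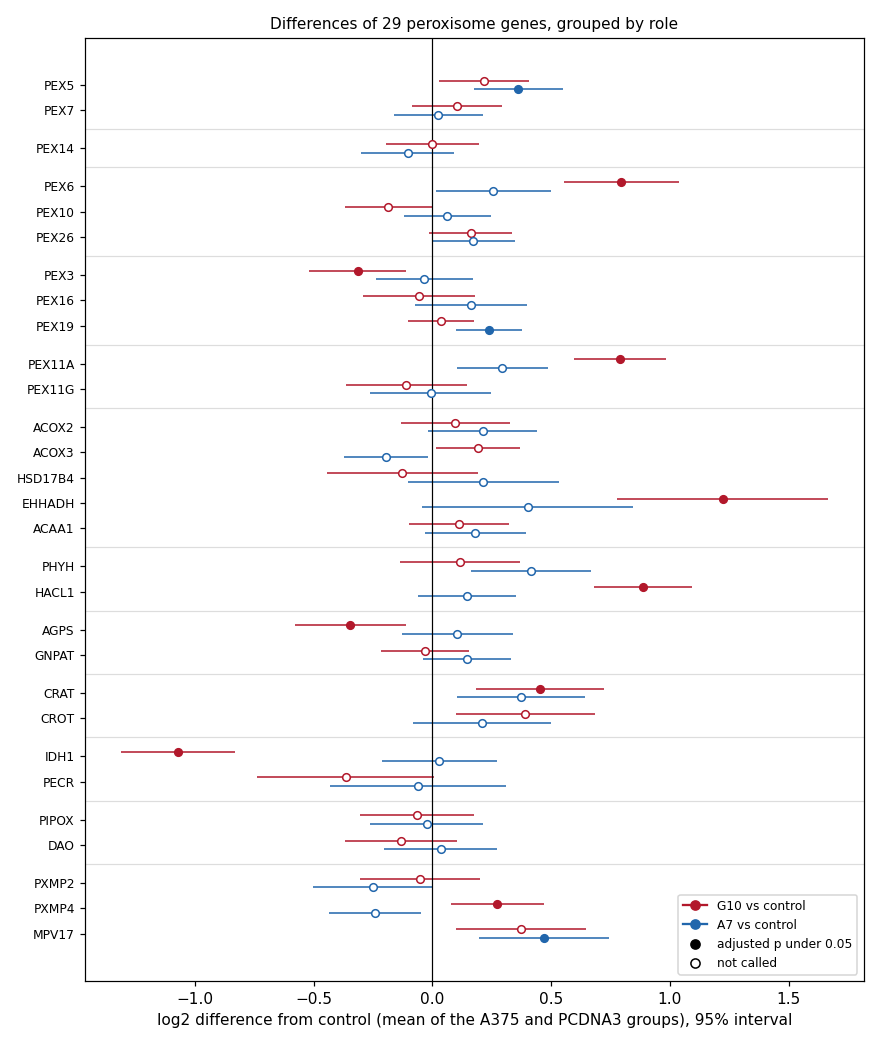
Log2 difference from control (horizontal axis) of the 29 peroxisome genes (vertical axis, grouped by role), with G10 in red above A7 in blue, 95% intervals as lines and filled points at adjusted p under 0.05. The differences in G10 spread from -1.07 for IDH1 to 1.22 for EHHADH, and those in A7 from -0.25 to 0.47.

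Among peroxins, PEX6, an ATPase that pulls import receptors back out of the membrane, was upregulated in the arrays labelled G10. PEX6 gave 7.82, 7.68, 7.41 and 7.23 in the arrays labelled G10 and 6.95, 7.21, 6.79 and 7.05 in A7, against 6.61, 6.82, 6.68 and 6.88 in PCDNA3 and 6.61, 6.87, 6.88 and 6.59 in A375. Every array labelled G10 lay above every other array, and A7 overlapped with the controls. The difference was 0.80 (SE 0.11, 1.74-fold, adjusted p = 0.000123) in G10-labelled arrays and 0.26 in A7 (adjusted p = 0.253). It stayed called in G10-labelled arrays without replicates 1 and 2 (0.58, adjusted p = 0.00531). The G10 vs A7 difference of 0.54 (adjusted p = 0.00943) did not stay called without them (0.32, adjusted p = 0.136). PEX26, which holds PEX6 at the membrane, averaged 8.26 ± 0.22 in G10-labelled arrays, 8.27 ± 0.07 in A7, 8.22 ± 0.02 in PCDNA3 and 7.99 ± 0.07 in A375 (SD, n = 4 each). PEX10, a ubiquitin ligase subunit of the same recycling step, averaged 7.29 ± 0.16, 7.54 ± 0.09, 7.58 ± 0.15 and 7.37 ± 0.10 in the same order. Neither passed in a comparison with all arrays. PEX39, a peroxin gene that neighbours PEX6 on chromosome 6, was singled out after its values were seen. It was higher by at least 0.39 in G10-labelled arrays (adjusted p = 0.0267), since its control mean lay below the level of olfactory receptors. PCDNA3 averaged 5.10 and A375 averaged 5.19, at about that level. The call was lost without G10 replicate 1, 2 or 3 (adjusted p up to 0.095) and without replicates 1 and 2 together (adjusted p = 0.185). It was also lost with A375 alone as control (adjusted p = 0.0954).

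PEX11A, a membrane protein that elongates peroxisomes before division, was the other upregulated peroxin of G10. PEX11A gave 6.66, 6.55, 6.45 and 6.50 in the arrays labelled G10 and 5.93, 6.03, 6.18 and 6.04 in A7, against 5.89, 5.87, 5.54 and 5.62 in PCDNA3 and 5.57, 5.87, 5.70 and 5.94 in A375. All arrays labelled G10 were above all others, with no gap between their pairs of the kind seen for EHHADH. The difference was 0.79 (SE 0.09, 1.73-fold, adjusted p = 1.64e-05), with 0.72 (adjusted p = 0.000943) without replicates 1 and 2. The G10 vs A7 difference was 0.50 (adjusted p = 0.00368). In A7 the difference from control was 0.29 (adjusted p = 0.0756). Its paralog PEX11G averaged 6.37 ± 0.12 in G10-labelled arrays and 6.47 ± 0.36 in A7, against 6.50 ± 0.13 in PCDNA3 and 6.46 ± 0.04 in A375, and did not pass in any comparison.

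Of the 2 import receptors, PEX5 was upregulated in A7. PEX5, the receptor for the common C-terminal targeting signal, averaged 8.39 ± 0.18 in G10-labelled arrays and 8.53 ± 0.04 in A7, against 8.19 ± 0.17 in PCDNA3 and 8.15 ± 0.11 in A375. All A7 arrays (8.51 to 8.58) lay above all control arrays (7.99 to 8.34), and the difference of 0.36 was called (SE 0.09, adjusted p = 0.0237). The call was lost without any 1 of the A7 arrays, at adjusted p between 0.058 and 0.09. PEX7, the receptor for the N-terminal signal, averaged 7.24 ± 0.23 in G10-labelled arrays and 7.16 ± 0.03 in A7, against 7.03 ± 0.13 in PCDNA3 and 7.25 ± 0.08 in A375. PEX14, the docking protein both receptors meet, averaged 8.29 ± 0.21 in G10-labelled arrays and 8.19 ± 0.11 in A7, against 8.27 ± 0.15 in PCDNA3 and 8.32 ± 0.06 in A375. PEX7 and PEX14 passed no test.

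Of the 3 peroxins that insert membrane proteins, PEX19 was upregulated in A7 and PEX3 was downregulated in G10-labelled arrays. PEX19, the chaperone that carries new membrane proteins, averaged 9.47 ± 0.13 in G10-labelled arrays and 9.68 ± 0.03 in A7, against 9.41 ± 0.05 in PCDNA3 and 9.46 ± 0.06 in A375. Its A7 arrays (9.65 to 9.71) did not overlap with the control arrays (9.37 to 9.51). The difference was 0.24 (SE 0.07, adjusted p = 0.0416), and the call was lost without any 1 of the A7, PCDNA3 or A375 arrays, at adjusted p up to 0.118. PEX3, the membrane anchor of PEX19, averaged 7.71 ± 0.28 in G10-labelled arrays and 7.99 ± 0.08 in A7, against 8.02 ± 0.09 in PCDNA3 and 8.03 ± 0.05 in A375. Its fall of -0.31 in G10-labelled arrays (adjusted p = 0.0317) was -0.11 (adjusted p = 0.537) without replicates 1 and 2. The call was also lost without replicate 1 (adjusted p = 0.117) or replicate 2 (adjusted p = 0.148) of G10 alone, and without PCDNA3 replicate 3 or A375 replicate 1 or 2, at adjusted p between 0.051 and 0.0575. PEX16, which helps PEX3 reach the membrane, averaged 7.66 ± 0.23 in G10-labelled arrays and 7.89 ± 0.18 in A7, against 7.78 ± 0.17 in PCDNA3 and 7.66 ± 0.15 in A375, and passed no test.

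**Figure D2:**
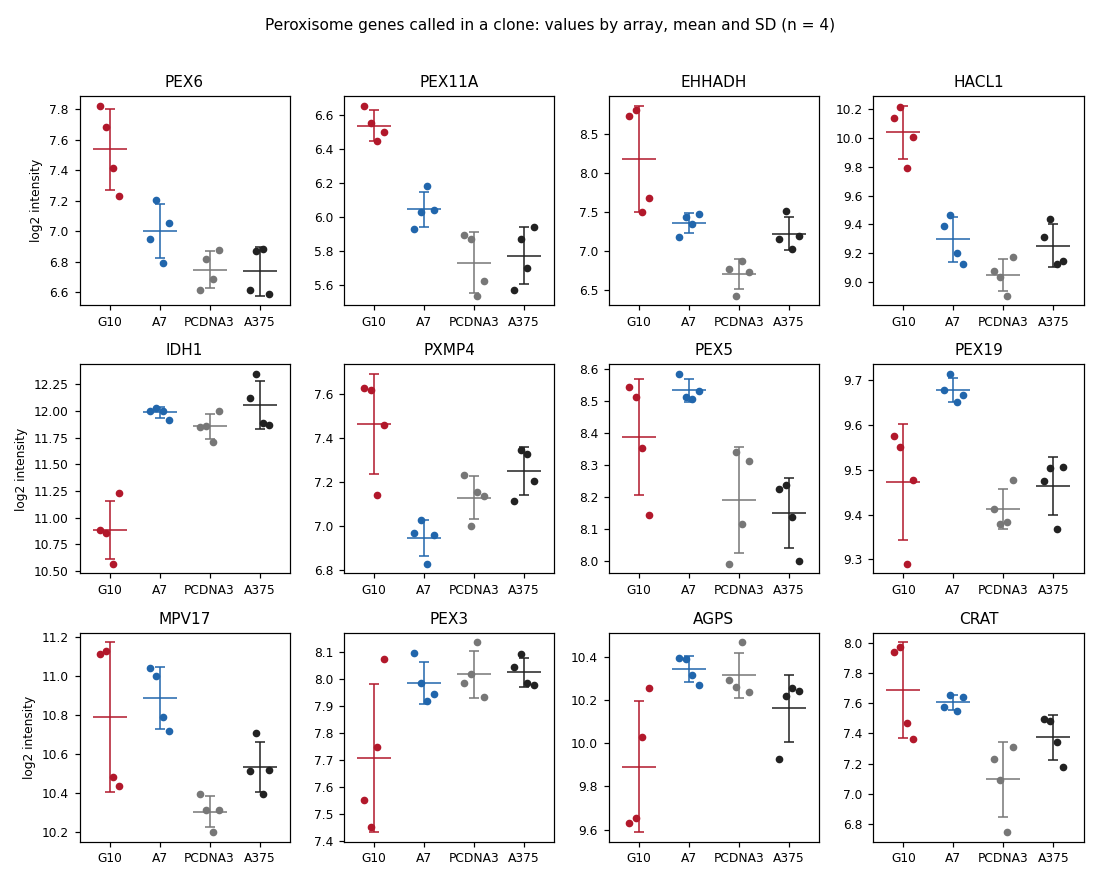
Log2 intensity (vertical axis) of the 12 peroxisome genes called in G10 or A7 against control, on each of the 4 arrays of G10, A7, PCDNA3 and A375 (left to right, points in replicate order), with the group mean as a long line and the SD as bars. PEX11A, PEX6 and HACL1 stand above and IDH1 below all other arrays in those labelled G10, while EHHADH, MPV17 and CRAT split by pair within them.

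Beta-oxidation shortens fatty acids by repeated rounds of dehydrogenation, hydration and cleavage. EHHADH, the bifunctional enzyme that handles mainly straight-chain substrates, had the largest rise in G10 among the 29 genes. EHHADH gave 8.73, 8.82, 7.51 and 7.68 in the arrays labelled G10 and 7.18, 7.44, 7.35 and 7.48 in A7, against 6.77, 6.43, 6.88 and 6.73 in PCDNA3 and 7.16, 7.52, 7.02 and 7.19 in A375. Replicates 1 and 2 stood more than 1 log2 unit above replicates 3 and 4, replicate 3 lay just below the highest A375 array, and PCDNA3 lay below A375 on all arrays. The difference was 1.22 (SE 0.21, 2.33-fold, adjusted p = 0.000589). Without replicates 1 and 2 it was 0.63 (adjusted p = 0.00638), and without replicates 3 and 4 it was 1.81 (adjusted p = 7.06e-07). Against A7 the difference was 0.82 (adjusted p = 0.0294), and 0.23 without replicates 1 and 2 (adjusted p = 0.382). That call was also lost without 1 of G10 replicates 1 and 2 or A7 replicates 1, 2 and 3, at adjusted p up to 0.0991.

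None of the other 4 enzymes of the pathway was called against control in either clone. ACOX3, an oxidase for branched-chain substrates, averaged 7.58 ± 0.11 in G10-labelled arrays and 7.19 ± 0.06 in A7, against 7.40 ± 0.13 in PCDNA3 and 7.37 ± 0.17 in A375. It was higher in G10 than in A7 by 0.39 (adjusted p = 0.0109), with neither clone called against control, and the call was lost without replicates 3 and 4 of G10 (0.30, adjusted p = 0.0884). HSD17B4, the bifunctional enzyme for branched and very long chains, averaged 9.89 ± 0.44 in G10-labelled arrays and 10.23 in A7, against 9.88 ± 0.22 in PCDNA3 and 10.16 ± 0.17 in A375. Its A7 arrays differed by little (SD 0.0022), while its arrays labelled G10 ran between 9.28 and 10.24. ACOX2, an oxidase for bile acid intermediates, averaged 5.43 ± 0.23 in G10-labelled arrays and 5.55 ± 0.15 in A7, against 5.36 ± 0.08 in PCDNA3 and 5.32 ± 0.21 in A375. ACAA1, the thiolase that ends a round, averaged 7.63 ± 0.10 in G10-labelled arrays and 7.70 ± 0.20 in A7, against 7.52 ± 0.13 in PCDNA3 and 7.52 ± 0.19 in A375. ACOX2, HSD17B4 and ACAA1 passed no test with all arrays. HSD17B4 was lower in G10 than in A7 without replicates 1 and 2 of G10 (-0.66, adjusted p = 0.0146).

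HACL1, the lyase that cleaves hydroxylated branched fatty acids in alpha-oxidation, was upregulated in the arrays labelled G10. HACL1 gave 10.14, 10.22, 9.79 and 10.00 in the arrays labelled G10 and 9.39, 9.47, 9.20 and 9.13 in A7, against 9.08, 9.04, 8.91 and 9.18 in PCDNA3 and 9.31, 9.44, 9.12 and 9.14 in A375. All arrays labelled G10 lay above all others. The difference was 0.89 (SE 0.10, 1.85-fold, adjusted p = 9.43e-06) and 0.75 without replicates 1 and 2 (adjusted p = 0.000624), and G10 lay above A7 by 0.74 (adjusted p = 0.000223). PHYH, the hydroxylase acting just before HACL1, averaged 7.38 ± 0.34 in G10-labelled arrays and 7.68 ± 0.09 in A7, against 7.21 ± 0.18 in PCDNA3 and 7.32 ± 0.07 in A375. Its A7 arrays did not overlap with the controls, yet the difference of 0.41 did not pass (adjusted p = 0.0538).

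IDH1, the NADPH-forming isocitrate dehydrogenase of the cytosol and the peroxisome, was the most strongly downregulated of the 29 genes. IDH1 gave 10.89, 10.86, 10.56 and 11.23 in the arrays labelled G10 and 12.00, 12.03, 12.00 and 11.91 in A7, against 11.85, 11.86, 11.71 and 12.00 in PCDNA3 and 12.12, 12.35, 11.89 and 11.87 in A375. All arrays labelled G10 were below all others, and A7 lay within the range of the controls. The difference was -1.07 (SE 0.11, 0.476-fold, adjusted p = 6.91e-06) in G10 vs control and -1.10 (adjusted p = 2.47e-05) in G10 vs A7. Without replicates 1 and 2 the difference from control was -1.06 (adjusted p = 0.000392). PECR, an NADPH-using reductase that makes chains saturated, averaged 6.94 ± 0.56 in G10-labelled arrays and 7.24 ± 0.11 in A7, against 7.11 ± 0.18 in PCDNA3 and 7.49 ± 0.19 in A375. With all arrays PECR was not called in G10-labelled arrays (-0.36, adjusted p = 0.188), but without replicates 1 and 2 it was (-0.82, adjusted p = 0.00144).

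Neither ether lipid enzyme was called higher in any comparison. AGPS, which swaps an acyl chain for an alcohol to form the ether bond, averaged 9.89 ± 0.30 in G10-labelled arrays and 10.34 ± 0.06 in A7, against 10.31 ± 0.10 in PCDNA3 and 10.16 ± 0.16 in A375. Its fall in G10-labelled arrays was -0.35 vs control (adjusted p = 0.0391) and -0.45 vs A7 (adjusted p = 0.0232). Without replicates 1 and 2, these were -0.09 (adjusted p = 0.641) and -0.20 (adjusted p = 0.305). The call vs control was also lost without replicate 1 (adjusted p = 0.159) or replicate 2 (adjusted p = 0.163) of G10 alone. It was lost, too, without A7 replicate 1, without PCDNA3 replicate 1, 2 or 3, and without A375 replicate 2, 3 or 4, at adjusted p between 0.0504 and 0.0701, and the call vs A7 without any 1 of G10 replicates 1 and 2 and A7 replicates 1 and 2, at adjusted p between 0.0551 and 0.0801. GNPAT, the acyltransferase acting just before AGPS, averaged 10.35 ± 0.13 in G10-labelled arrays and 10.52 ± 0.18 in A7, against 10.33 ± 0.09 in PCDNA3 and 10.42 ± 0.13 in A375, and passed no test.

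CRAT and CROT pass shortened chains to carnitine for export, CRAT acetyl groups and CROT medium chains. CRAT averaged 7.69 ± 0.32 in G10-labelled arrays and 7.61 ± 0.05 in A7, against 7.09 ± 0.25 in PCDNA3 and 7.37 ± 0.15 in A375. Its rise of 0.45 in G10-labelled arrays (adjusted p = 0.0197) was lost without replicate 1 (adjusted p = 0.0852), without replicate 2 (adjusted p = 0.0945) and without both (0.18, adjusted p = 0.428). CROT averaged 8.20 ± 0.32 in G10-labelled arrays and 8.02 ± 0.14 in A7, against 7.78 ± 0.19 in PCDNA3 and 7.83 ± 0.26 in A375, with 0.39 in G10-labelled arrays (adjusted p = 0.0622).

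Among membrane proteins, PXMP4, a protein of the peroxisomal membrane, separated the clones. PXMP4 gave 7.63, 7.62, 7.14 and 7.46 in the arrays labelled G10 and 6.97, 7.02, 6.83 and 6.96 in A7, against 7.23, 6.997, 7.15 and 7.13 in PCDNA3 and 7.11, 7.34, 7.33 and 7.21 in A375. The clones did not overlap, and the control means lay between them, with replicate 3 of G10 among the controls. G10 lay above A7 by 0.52 (SE 0.11, adjusted p = 0.00273), whereas the rise of 0.27 vs control (adjusted p = 0.0492) was lost without any 1 of 14 of the 16 arrays. Without replicates 1 and 2 of G10, that rise was 0.11 (adjusted p = 0.562). MPV17, placed mainly in the mitochondrial inner membrane although once described as peroxisomal, averaged 10.79 ± 0.38 in G10-labelled arrays and 10.88 ± 0.16 in A7, against 10.30 ± 0.08 in PCDNA3 and 10.53 ± 0.13 in A375. Its difference in G10-labelled arrays was 0.37 (adjusted p = 0.0588), and it was called without replicates 3 and 4. The difference in A7 was 0.47 (adjusted p = 0.0436), and this call was lost without any 1 of the A7 or PCDNA3 arrays or A375 replicate 1, 3 or 4, at adjusted p up to 0.166. PXMP2, a channel of the peroxisomal membrane, averaged 8.73 ± 0.26 in G10-labelled arrays and 8.53 ± 0.08 in A7, against 8.71 ± 0.27 in PCDNA3 and 8.85 ± 0.12 in A375. Neither of its 2 clusters passed a test.

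**Figure D3:**
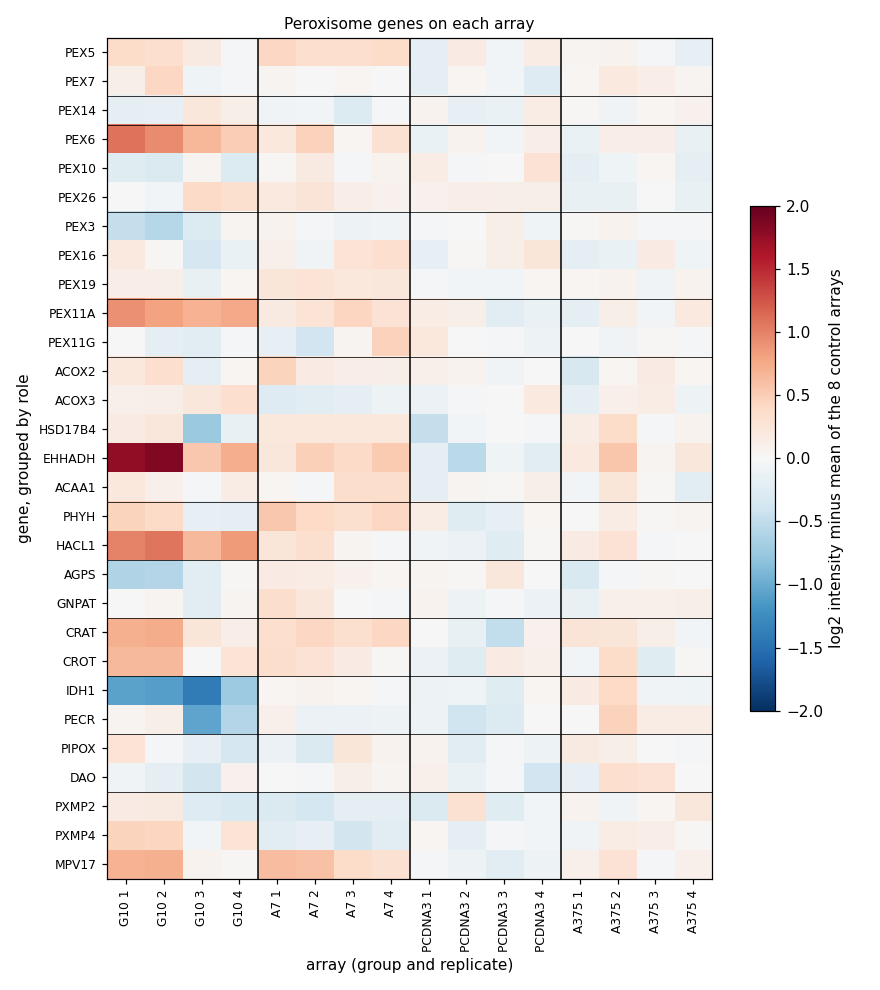
Each of the 29 peroxisome genes (rows, grouped by role) on each array (columns, G10, A7, PCDNA3 and A375), coloured by log2 intensity minus the mean of the 8 control arrays (red higher, blue lower, scale from -2 to 2). Replicates 1 and 2 of G10 look alike and differ from replicates 3 and 4 in EHHADH, MPV17, CROT, PECR and PEX3, whereas IDH1 is low and HACL1 and PEX11A high on all arrays labelled G10.

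Without replicates 1 and 2, 5 genes were higher and 2 lower in G10 vs control, with PEX26 and PECR joining PEX6, PEX11A, EHHADH, HACL1 and IDH1. Without replicates 3 and 4, 10 were higher and 3 lower. The 4 genes that joined were PEX5 (0.36, adjusted p = 0.0175), PHYH (0.41, adjusted p = 0.00909), CROT (0.65, adjusted p = 0.00516) and MPV17 (0.70, adjusted p = 0.00021). The differences were then 1.01 for PEX6, 0.86 for PEX11A, 1.03 for HACL1 and -1.08 for IDH1.

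Between the clones, 6 of the 29 genes were higher in G10-labelled arrays (PEX6, PEX11A, ACOX3, EHHADH, HACL1 and PXMP4) and 2 lower (AGPS and IDH1). Of all clusters, 7.83% were called higher and 7.38% lower. Of the 20847 clusters above the level of olfactory receptors in a group, 22.4% were called in either direction, against 27.6% of the 29 genes. Arrays of the clones did not overlap in 6 genes higher in G10, against 8.89% of all clusters, and in 3 lower, against 8.48%. These were the called genes and PEX19, whose difference of -0.20 was not called (adjusted p = 0.0858). Of the 20847 clusters, 2656 did not overlap on the higher side and 2488 on the lower side. Without replicates 1 and 2, the genes lower in G10 became 6, with IDH1, PEX19, HSD17B4, PHYH, PECR and MPV17. PEX6 (adjusted p = 0.136) and EHHADH (adjusted p = 0.382) were then no longer called higher. Without replicates 3 and 4 the genes lower in G10 were 4, with IDH1, AGPS, PEX3 and PEX10, and ACOX3 was no longer called higher (adjusted p = 0.0884).

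Other peroxisomal genes were listed for comparison, and 57 of 69 had a cluster of their own. In G10 vs control 14 of 57 were upregulated and 6 downregulated, against 9.92% and 7.9% of all clusters. In A7 vs control these were 4 and 3, against 3.46% and 2.23%, and in PCDNA3 vs A375 they were 1 (SQSTM1) and 0, against 0.045% and 0.0781%. In either direction, 35.1% of the 57 were called in G10 and 12.3% in A7. For the 20847 clusters above the level of olfactory receptors in a group, these shares were 26.3% and 7.99%, although some of the 57 lay below that level. EPHX2, the soluble epoxide hydrolase, gave 5.90, 6.04, 5.84 and 5.75 in A7, against 4.35 to 5.16 in the 8 control arrays. As the controls lay below the level of olfactory receptors, A7 was higher by at least 0.71 (adjusted p = 0.000166). In G10 it was called lower with both sides below that level, so no size is given, and the call was lost without replicates 3 and 4 (adjusted p = 0.07). ACSL1, an acyl-CoA synthetase found on several membranes, gave 9.98, 10.04, 9.96 and 9.81 in A7, against 8.72 to 9.23 in the 8 control arrays (0.96, adjusted p = 7.92e-06). Both genes separated A7 from the controls without overlap. ABCD2, a transporter of long-chain acyl-CoA, was called higher in A7 (adjusted p = 0.00102) with both sides below the level. It was also called higher in G10 (adjusted p = 0.02), again below the level. That call was lost without replicates 1 and 2 (adjusted p = 0.369).

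The falls in A7 were in GDAP1 and FIS1, which act in the fission of mitochondria and peroxisomes, and in PEX2, a ubiquitin ligase subunit for receptor recycling. GDAP1 gave 8.28, 8.11, 8.23 and 8.24 in A7, against 8.48 to 9.03 in the 8 control arrays (-0.56, adjusted p = 0.00458), while in G10-labelled arrays it rose by 0.39 (adjusted p = 0.0185). The call in G10 was lost without replicate 3 or replicate 4 alone (adjusted p up to 0.0745), without both (0.18, adjusted p = 0.342) and with PCDNA3 alone as control (0.27, adjusted p = 0.174). FIS1 fell by 0.38 in A7 (adjusted p = 0.0103), and the call was lost without A7 replicate 1 (adjusted p = 0.0532). With A375 alone as control, the falls in A7 were not called for GDAP1 (-0.45, adjusted p = 0.0551) or FIS1 (-0.31, adjusted p = 0.0902). PEX2 averaged 7.82 ± 0.29 in G10-labelled arrays and 6.69 ± 0.13 in A7, against 6.92 ± 0.19 in PCDNA3 and 7.55 ± 0.22 in A375. It was called higher in G10-labelled arrays (0.59, adjusted p = 0.00358) and lower in A7 (-0.54, adjusted p = 0.0186), but its PCDNA3 arrays all lay below its A375 arrays. With PCDNA3 alone as control, A7 was not called (-0.22, adjusted p = 0.504), and with A375 alone, G10 was not (0.27, adjusted p = 0.267). The rise in G10 was not called without replicates 1 and 2 either (0.41, adjusted p = 0.102).

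In G10 the largest rises outside the 29 genes were in DDO and ACOT8. DDO, the D-aspartate oxidase, gave 7.21, 7.17, 5.996 and 6.68 in the arrays labelled G10, against 5.45 to 6.07 in the 8 control arrays (0.99, adjusted p = 0.00121). ACOT8, an acyl-CoA thioesterase, gave 8.72, 8.43, 8.21 and 7.84, against 7.20 to 7.97 (0.74, adjusted p = 0.00107). Replicate 3 overlapped with the controls for DDO and replicate 4 for ACOT8. NUDT7, a hydrolase of coenzyme A, had the largest fall. It gave 6.80, 6.80, 5.72 and 5.15 in the arrays labelled G10 and 7.84, 7.83, 7.76 and 7.65 in A7, against 6.94, 6.75, 7.08 and 7.13 in PCDNA3 and 7.47, 8.04, 7.48 and 7.86 in A375. The difference was -1.22 (adjusted p = 0.00205), and with PCDNA3 alone as control it was -0.86 (adjusted p = 0.0521).

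Of 6 lipid-sensing transcription factors and coactivators, 1 was called higher and 2 lower in G10 vs control. The shares of all clusters were 9.92% and 7.9%. PPARG, a PPAR receptor, was higher in G10 by at least 0.18 (adjusted p = 0.000288), with its controls below the level. The coactivator PPARGC1B fell by 0.39 in G10-labelled arrays (adjusted p = 0.00224), but was not called with A375 alone as control (-0.27, adjusted p = 0.059). RXRA was also called lower in G10-labelled arrays (-0.28, adjusted p = 0.0267). Its call was lost without replicates 1 and 2 (-0.18, adjusted p = 0.279) and with A375 alone as control (-0.06, adjusted p = 0.755). PPARGC1A, a coactivator of the same family, was singled out after its values were seen. It gave 8.93, 8.97, 6.99 and 7.68 in the arrays labelled G10 and 8.65, 8.97, 8.33 and 8.49 in A7. The 8 control arrays ran from 6.29 to 8.58, and neither clone was called against control. MITF, the melanocyte lineage factor, likewise chosen after its values were seen, gave 10.59, 10.54, 9.48 and 9.69 in the arrays labelled G10. PPARGC1A and MITF were both higher in replicates 1 and 2 than in replicates 3 and 4, as EHHADH was. The pigment cell genes MLANA (7.96, 8.21, 9.78 and 9.57), PMEL (9.16, 9.30, 10.82 and 11.34) and TYR (4.64, 4.51, 7.13 and 5.92) ran the other way across the same arrays. They too were picked from the 11 melanocyte lineage markers after their values were seen. The rest of that list, TYRP1 among them, is not given by array, so no pattern of the whole list is described. The part of these genes in the peroxisome gene values was not tested.

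**Figure D4:**
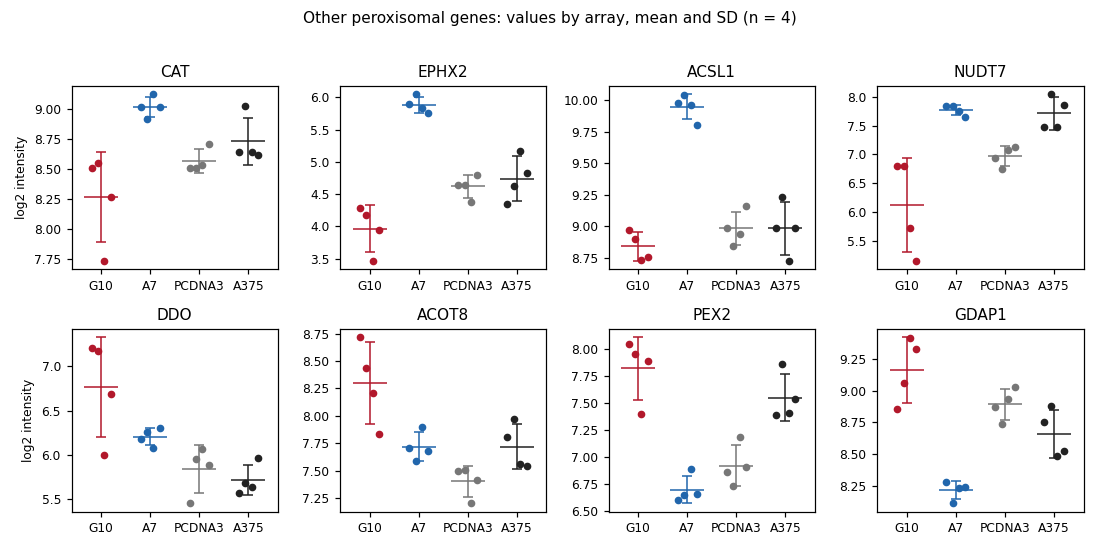
Log2 intensity (vertical axis) of CAT and 7 other peroxisomal genes on each of the 4 arrays of G10, A7, PCDNA3 and A375 (left to right, points in replicate order), with the group mean as a long line and the SD as bars. EPHX2 and ACSL1 are high in A7 alone, NUDT7 is low in G10-labelled arrays, and PEX2 lies lower in PCDNA3 than in A375.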

How the data were processed

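The authors extracted RNA with 4 biological replicates per condition, hybridised it to Affymetrix Human Gene 1.0 ST arrays and made the deposited log2 intensities by RMA (background correction, quantile normalization and probe summary). The submitters' notes name RMA and limma without versions, and the array's genome build is not given in the sources used here. RMA makes array distributions alike and compresses low signals, so small changes of dim genes are understated.

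Group means were estimated for all 33297 clusters over all 16 arrays with limma 3.58.1 in R 4.3.3, and control was taken as the mean of both control lines. P-values were adjusted over all clusters (Benjamini-Hochberg) and a call was an adjusted p under 0.05. Genes were tied to clusters by GEO's platform annotation, using clusters with 1 symbol (19460, with 1754 carrying several and 12083 none). Depth does not apply to arrays, and the 4 arrays per group limit the precision. Members, lists and alternatives were chosen with earlier results of these data known. Every gene is described, array by array where called with a log2 difference of at least 0.5. Of the other peroxisomal genes, CAT and the 3 largest called rises and falls of each clone are named. The code was tested on simulated data. Motifs and plots used Python 3.11.15, pandas 2.3.3 and matplotlib 3.10.9.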

Additional observations from a re-analysis of the deposited data

Results flagged for a closer look

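In 8 of 116 groups of 4 arrays (29 genes in 4 groups), 1 array stood apart from the others by a Dixon gap, where chance flags about 1 in 20 groups. In A7, PEX14 was 8.03 in replicate 3, against 8.23 to 8.26 in the others, ACOX2 was 5.78 in replicate 1, against 5.46 to 5.49, and PECR was 7.40 in replicate 1, against 7.18 to 7.19. In the arrays labelled G10, PEX10 was 7.53 in replicate 3, against 7.19 to 7.23. In PCDNA3, HSD17B4 was 9.55 in replicate 1, against 9.97 to 10.01. In A375, PEX26 was 8.10 in replicate 3, against 7.95 to 7.96, AGPS was 9.93 in replicate 1, against 10.22 to 10.26, and GNPAT was 10.23 in replicate 1, against 10.48 to 10.49.

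The effects of the 2 clones relative to the shared control differed by the limma test of G10 vs A7 in 8 genes. G10-labelled arrays lay above A7 in PEX6 (0.54), PEX11A (0.50), ACOX3 (0.39), EHHADH (0.82), HACL1 (0.74) and PXMP4 (0.52), and below A7 in AGPS (-0.45) and IDH1 (-1.10).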

How the results depend on the processing

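Counts are genes called among the 29, higher then lower, with main counts of 6 and 3 in G10 vs control, 3 and 0 in A7 vs control, 6 and 2 in G10 vs A7 and 0 and 0 in PCDNA3 vs A375. Apart from leaving out 1 array and the replicate block, only the larger changes in a count are listed. Smaller ones also occurred in G10 vs control. CRAT and PXMP4 were not called with A375 alone (adjusted p = 0.19 and 0.22), nor PEX3 with PCDNA3 alone (adjusted p = 0.0728). In A7 vs control, the count higher was 1 with A375 alone, 1 with PCDNA3 alone, 6 with only the arrays compared, 1 after further quantile normalization, 5 with array weights, 5 with only clusters above the olfactory receptor level and 0 at adjusted p under 0.001. In G10 vs control, the count lower was 1 with A375 alone, 1 with only the arrays compared, 1 with median-centred arrays and 1 at adjusted p under 0.001. In G10 vs A7, the count lower was 1 in each of the last 3 settings, and the count higher was 1 at adjusted p under 0.001. Without G10 replicates 3 and 4, 10 genes were higher in G10 vs control and 4 lower in G10 vs A7, and without G10 replicates 1 and 2, 6 were lower in G10 vs A7. Leaving out 1 array at a time gave 0 to 4 higher in A7, where it was 0 without any 1 of the A7 arrays, 4 to 8 higher and 1 to 4 lower in G10, 5 to 6 higher and 1 to 3 lower in G10 vs A7, and 0 in the rest.

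Of 627 alternatives for 35 called values, 496 kept direction and call, 131 lost the call and 0 reversed. PEX6, PEX11A, EHHADH, HACL1 and IDH1 in G10 vs control kept their calls with each of the 16 arrays left out. The cause of the lost calls was not tested.

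Replicate numbers did not pair the arrays. Deviations from group means correlated between -0.16 and 0.23 over 24 pairs of the same number (median 0.0048, against 0.0068 for different numbers), and 3 pairs exceeded 0.1. With the replicate block, 6 were higher and 2 lower in G10 vs control, 2 and 0 in A7 vs control, 6 and 2 in G10 vs A7 and 0 and 0 in PCDNA3 vs A375.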
